A study of Mus musculus with 12 samples.

Results

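The potassium channel genes of the mouse are the genes whose symbols start with Kcn. They encode the pore-forming subunits of potassium channels and the auxiliary subunits that travel with them. The count table held 99 rows with such a symbol, of which 94 were protein-coding and 5 were antisense transcripts. A gene was tested when it reached a log2 CPM (the CPM is a gene's count scaled to the size of its library) of at least 1 in at least 3 libraries. By that rule 74 of the 94 protein-coding Kcn genes were tested, among 14008 of 55573 genes in all, and the other 20 are described by their counts only.

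RNA-seq was performed on poly-A RNA of whole right hippocampi from 12 mice, all C57BL/6J and all 4.5 months old. The groups were 4 female APP/PS1, 2 female WT, 4 male APP/PS1 and 2 male WT mice. APP/PS1 mice carry the APPSwe/PS1dE9 transgenes. These encode amyloid precursor protein (mouse/human chimera) bearing the Swedish mutation, and human presenilin from which exon 9 is deleted. A prion promoter element drives each of them. The comparison of genotypes asks how early amyloid pathology changes hippocampal transcripts, and the comparison of sexes asks whether females respond differently.

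Potassium channels set the resting potential, the shape of the action potential and the interval between spikes, so they bear directly on how readily a hippocampal neuron fires. Voltage-gated Kv channels repolarise the membrane, calcium-activated channels give the afterhyperpolarisation, and inward rectifiers and tandem-pore-domain channels hold the cell near rest. Glia, blood vessels and the choroid plexus use other members, mainly inward rectifiers, to buffer and secrete potassium.

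Libraries held between 36714316 and 50643565 counts assigned to genes. All 6 markers of plaque-associated microglia were higher in every APP/PS1 library than in every WT library, with a summed level of 107.1 to 185.1 CPM against 56.98 to 63.79 CPM. Neuronal markers were present in all libraries, and the hippocampal neuron markers summed to between 616.1 and 810 CPM. Transthyretin (Ttr), a choroid plexus transcript, was at 3530, 3647 and 6362 CPM in 3 libraries (APP/PS1 female 1, WT female 2 and APP/PS1 male 2) and between 2.686 and 18.28 CPM in the other 9. All 13 choroid plexus markers were higher in each of these 3 Ttr-rich libraries than in every other library. Of 4 tested striatum and thalamus markers, 1 (Ppp1r1b) was higher in each of them, and the other 3 overlapped. Every count of called Kcn genes below was also computed without these 3 libraries.

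1 potassium channel gene, Kcnj2, rose in APP/PS1 hippocampus when the sexes were averaged, and none fell by edgeR's quasi-likelihood test with Benjamini-Hochberg adjustment at a false discovery rate (FDR) of 0.1. Across all genes tested, 1.69% were called higher and 0.15% were called lower. At an unadjusted p under 0.05, 6 members were higher and 6 were lower, which is 8.11% of the members in each direction, beside 6.15% and 3.31% of all genes. The likelihood ratio test of edgeR called 2 members lower, Kcnip2 and Kcng2, as did DESeq2. Of all 14008 genes, these tests called 59 and 83 lower. With a filter at a CPM of 1 in 3 libraries, the quasi-likelihood test called 2 lower, Kcnip2 and Kcnmb1, beside 25 of 15521 genes. The median log2 fold change was -0.0019 over the 74 members and 0.0091 over all genes. Of the members, 36 were above 0 (48.6%, beside 54.5% of all genes) and 38 below. In 63 of 74 members (85.1%, beside 89.2% of all genes) the estimate was within 0.2 of 0 on the log2 scale. The 95% confidence interval lay within 0.5 log2 units of 0, a 1.41-fold change, for 65 members and within 0.25 log2 units, a 1.19-fold change, for 38.

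**Figure D1:**
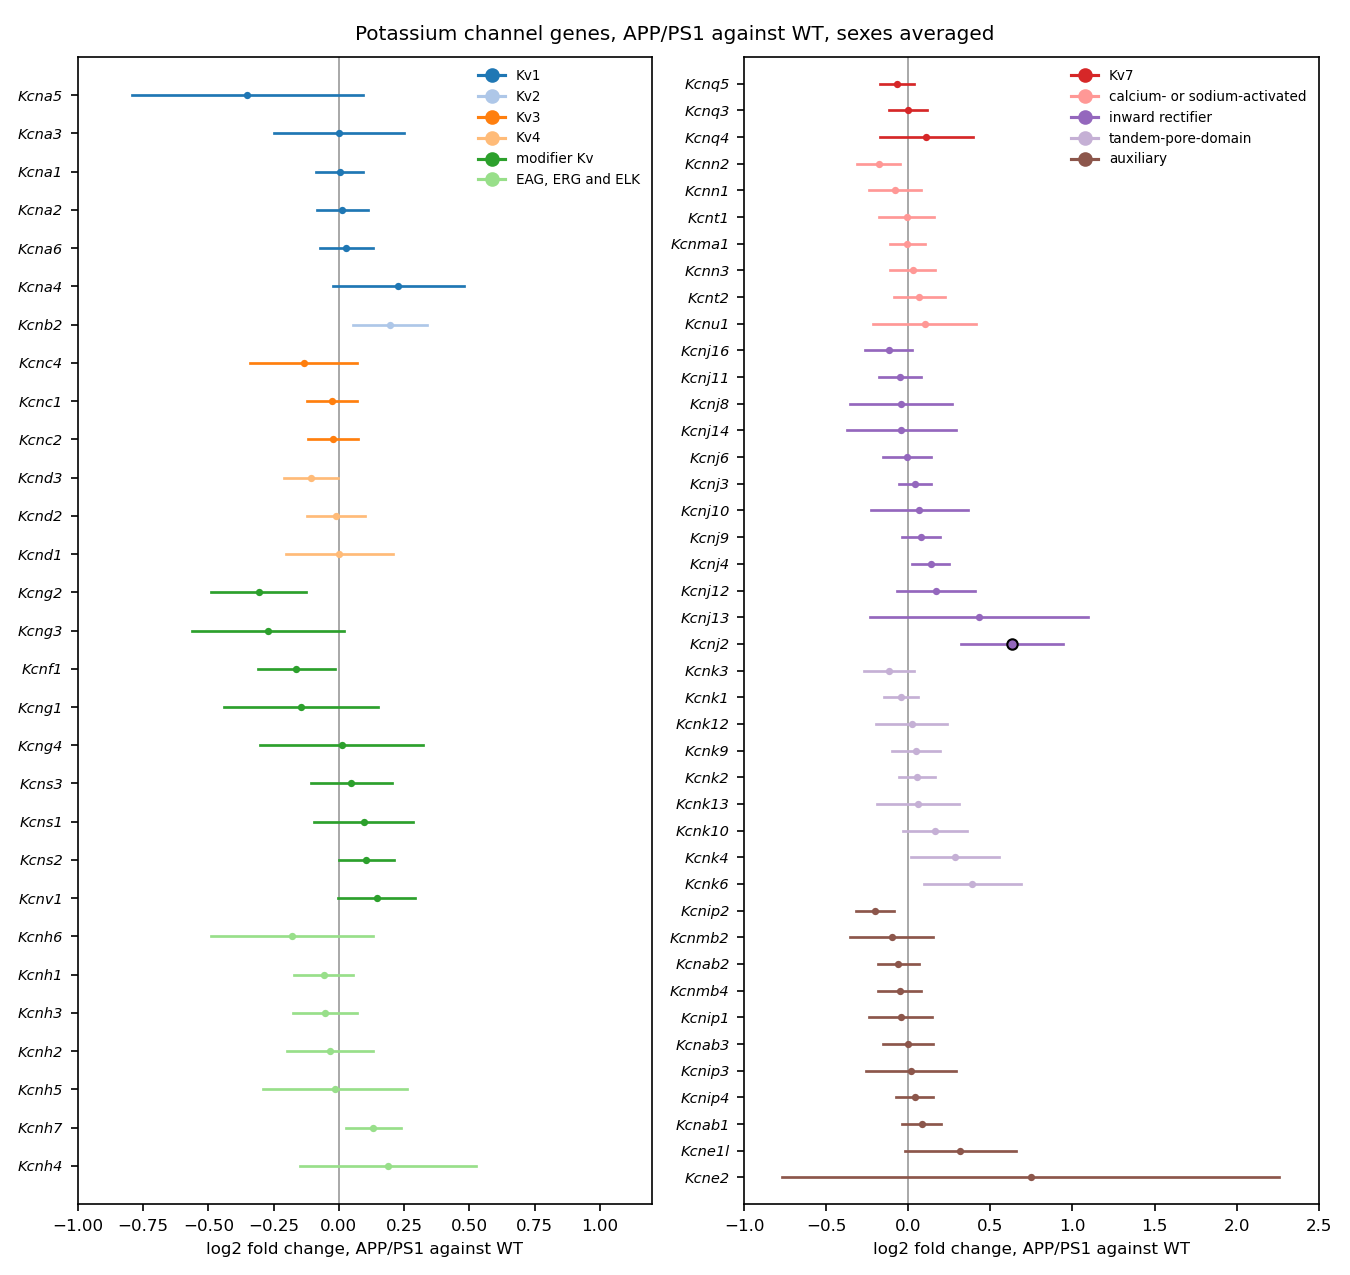
Log2 fold change of 71 of the 74 potassium channel genes (x axis, APP/PS1 against WT, sexes averaged) with its 95% confidence interval, ordered and coloured by subfamily. The black-ringed point marks Kcnj2, the gene called at an FDR of 0.1, at 0.63. Most points sit within 0.2 of 0, and the intervals of Kcnj13 and Kcne2 are the widest.

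Kcnj2 encodes an inward rectifier that conducts potassium near the resting potential and is found in neurons, vascular cells and microglia. The gene lies on the plus strand at chr11:111066164-111076821 (GRCm38) and overlaps no other annotated gene. Because it was the member called, the 250 bases before its start are shown here, from RefSeq on GRCm38.p6 at chr11:111065914-111066163, plus strand, 5′ to 3′. Capitals mark matches on either strand to GGGCGG (GC box) and CCAAT.
Kcnj2: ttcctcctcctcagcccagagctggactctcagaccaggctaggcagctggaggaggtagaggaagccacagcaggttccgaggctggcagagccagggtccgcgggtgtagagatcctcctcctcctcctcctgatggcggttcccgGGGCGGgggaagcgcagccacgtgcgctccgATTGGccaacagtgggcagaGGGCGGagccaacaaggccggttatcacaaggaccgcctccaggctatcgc
The window held 2 GGGCGG matches, at 46 to 51 and 97 to 102 bases before the start, and 1 CCAAT match on the reverse strand at 67 to 71 bases. Of 32851 RefSeq windows of this length, 32.7% held GGGCGG and 33.8% held CCAAT on either strand.

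Kcnj2 was at 17.22, 16.32, 19.18 and 19.34 CPM in female APP/PS1 mice and at 10.11 and 11.43 CPM in female WT mice. It was at 26.74, 18.49, 14.91 and 15.2 CPM in male APP/PS1 mice and at 12.66 and 11.76 CPM in male WT mice. All 8 APP/PS1 libraries were above all 4 WT libraries, and APP/PS1 male 1 was the highest. The same separation was seen in 1.31% of all genes, and in no other member. The means were 18.4 ± 3.76 CPM (SD, n = 8) and 11.5 ± 1.06 CPM (SD, n = 4), and the log2 fold change was 0.63 ± 0.14 (SE) with an adjusted p of 0.0651 by edgeR's quasi-likelihood test. The change was 0.66 ± 0.20 in females and 0.60 ± 0.20 in males, and neither passed within its sex by edgeR's quasi-likelihood test (adjusted p = 0.301 and 0.664). In females Kcnj2 was called by edgeR's likelihood ratio test (adjusted p = 0.0875), by DESeq2 (0.0359) and by the quasi-likelihood test without APP/PS1 male 1 (0.00974). The difference between the sexes was 0.06 on the log2 scale (unadjusted p = 0.836 in edgeR's interaction test).

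All 7 microglia markers were above 0 in log2 fold change. edgeR's quasi-likelihood test called 4 of them, and its likelihood ratio test and DESeq2 each called 6. They summed to 469.4 to 750.1 CPM in APP/PS1 against 316.6 to 401.6 CPM in WT, with none at 0 in any library. The 5 neuron markers summed to 8328 to 9018 CPM in APP/PS1 against 8487 to 9240 CPM in WT, with 0 called by any of these tests. The 6 endothelial and mural markers, from cells that also use Kcnj2, summed to 227.3 to 286.4 CPM in APP/PS1 against 203.5 to 281.9 CPM in WT, with 0 called by edgeR's quasi-likelihood test, its likelihood ratio test or DESeq2, and 0 at an unadjusted p under 0.05. The part of any of these cell types in the result was not tested. In bulk tissue more cells of a type and more RNA per cell cannot be told apart. The call was lost on leaving out any 1 of 9 of the 12 animals, with an adjusted p up to 0.289 (without WT female 1), and its log2 fold change over all 21 alternatives was 0.54 to 0.75. Without the Ttr-rich libraries it was 0.67 (adjusted p = 0.0448, edgeR).

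Among the other channels described in microglia, Kcnk6 encodes a tandem-pore-domain channel that also serves macrophages. It was at 8.157, 5.351, 7.53 and 7.135 CPM in female APP/PS1 mice, 5.503 and 4.805 CPM in female WT mice, 5.176, 6.13, 4.592 and 6.211 CPM in male APP/PS1 mice and 3.897 and 4.847 CPM in male WT mice. The groups overlapped in each sex, and the log2 fold change of 0.39 ± 0.14 did not pass (adjusted p = 0.33, edgeR). Kcna3, a voltage-gated channel of lymphocytes and microglia, had a log2 fold change of 0.00 with a 95% interval from -0.25 to 0.25. Kcnk13, a microglial tandem-pore-domain channel, was at 0.06 with an interval from -0.19 to 0.31. Kcnn4, a calcium-activated channel of blood cells and microglia, was below the filter with 2 to 18 counts a library.

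No other inward rectifier was called. Of 12 tested members of 15 in the table, 7 were above 0 and 5 below, and the median log2 fold change was 0.05. Kcnj10, the main potassium-buffering channel of astrocytes, had the highest level per length of the subfamily (35.8 CPM per kb of exon) and a log2 fold change of 0.07, with an interval from -0.23 to 0.36. Its glial partner Kcnj16 was at -0.12 (interval -0.26 to 0.02) and Kcnj8, the pore of the vascular ATP-sensitive channel, at -0.05 (interval -0.36 to 0.27). Kcnj4, a neuronal relative of Kcnj2, was at 0.14 ± 0.05 (adjusted p = 0.386, edgeR), with 62.52 to 81.97 CPM in APP/PS1 and 61.33 to 69.67 CPM in WT libraries. The astrocyte marker list had 1 called gene of 5, Gfap, while Kcnj10 ranged from 154.8 to 240.0 CPM in APP/PS1 and from 153.6 to 214.5 CPM in WT, so the genotypes overlapped.

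The lowest p-values among members below 0 belonged to Kcnip2 and Kcng2, and neither passed. Kcnip2 encodes a calcium-binding subunit of the Kv4 channels that carry the A-type current in dendrites. It was at 132.8, 140.6, 143.9 and 147.8 CPM in female APP/PS1 mice against 175.3 and 161.9 CPM in female WT mice. In males it was at 156.9, 143.7, 133.8 and 158.1 CPM against 157.2 and 175.2 CPM. The groups were separate in females, while in males APP/PS1 male 4 was above WT male 1. Here and for the genes below, separation within a sex is a description, because its share over all genes was not counted. The log2 fold change was -0.20 ± 0.05 (adjusted p = 0.111, edgeR's quasi-likelihood test), with -0.26 ± 0.08 in females and -0.14 ± 0.08 in males. It was called in 8 of 21 alternatives, the likelihood ratio test, DESeq2 and TMM scaling among them, and ranged from -0.24 to -0.17. The pores it joins were nearer 0: Kcnd2, at the highest level of the Kv4 genes (24.9 CPM per kb), was at -0.01 (interval -0.12 to 0.10) and Kcnd3 at -0.11 ± 0.05 (adjusted p = 0.517, edgeR). Kcnip4, another subunit of this family, was at 0.04, and its span overlaps 24 annotated genes on its own strand and 7 antisense genes, so its count is uncertain.

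Kcng2 encodes an electrically silent Kv subunit that modifies Kv2 channels. It was at 24.09, 26.84, 27.82 and 27.84 CPM in female APP/PS1 mice against 41.38 and 32.14 CPM in female WT mice, and at 26.35, 27.4, 24.68 and 29.58 CPM in male APP/PS1 mice against 26.67 and 34.84 CPM in male WT mice. The groups were separate in females and overlapped in males. The log2 fold change was -0.31 ± 0.08 averaged (adjusted p = 0.136), -0.47 ± 0.12 among females (0.156 after adjustment) and -0.15 ± 0.12 in males, where the adjusted p was 0.999, all by edgeR's quasi-likelihood test. It was called in 5 of 21 alternatives, including the fit without the Ttr-rich libraries (-0.38, adjusted p = 0.0658). Kcng2 overlaps 1 annotated gene on its own strand and 2 antisense genes, so its count is uncertain, as are those of Kcnb2, Kcnd3 and Kcnq5, which also overlap other genes. Kcnb2, a Kv2 pore that forms delayed rectifier channels, had a log2 fold change of 0.20 ± 0.07 (adjusted p = 0.298, edgeR). It was at 28.14 to 34.5 CPM in APP/PS1 and 25.8 to 28.91 CPM in WT libraries, so the genotypes overlapped.

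**Figure D2:**
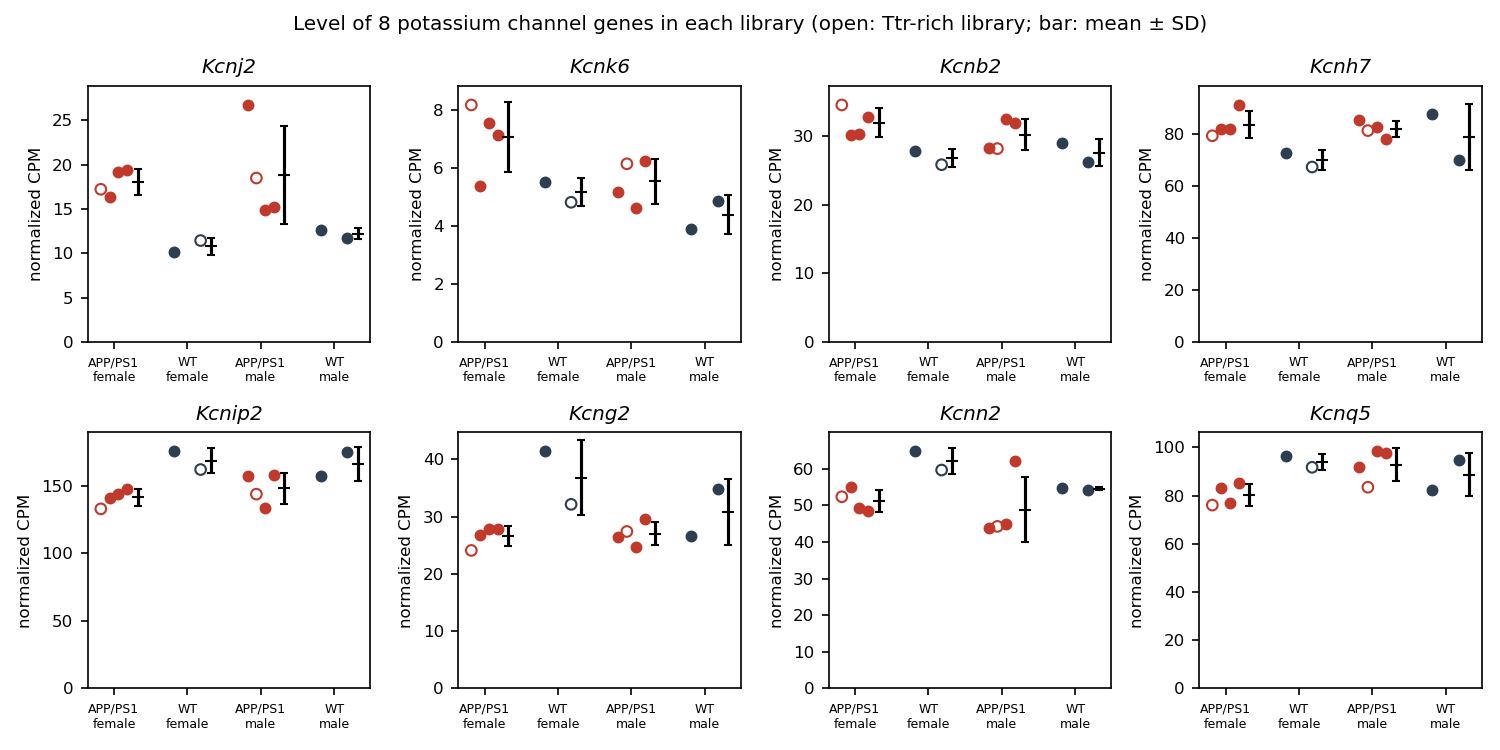
Normalized CPM (y axis, from 0) of 8 potassium channel genes in each of the 12 libraries, by genotype and sex, with the mean ± SD of each group (n = 4 APP/PS1 and 2 WT per sex). Open circles are Ttr-rich libraries. Kcnj2 is the gene in which all APP/PS1 points lie above all WT points.

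The remaining voltage-gated subfamilies held no called gene by edgeR's quasi-likelihood test. Of the 6 tested Kv1 genes, which set spike threshold in axons, 4 were above 0 and 2 below, and Kcna1 was at 0.00 (interval -0.09 to 0.09). All 4 Kv3 genes, which allow fast spiking, were below 0 with a median of -0.08. Of 4 tested Kv7 genes, the pores of the M-current, 3 were below 0. Kcnq3 was at -0.00 (interval -0.12 to 0.11). Of 7 tested genes of the EAG, ERG and ELK group, 5 were below 0. Kcnh3, the highest of them at 12.4 CPM per kb, was at -0.05, and Kcnh7 was at 0.13 ± 0.05 (adjusted p = 0.361, edgeR). Kcnh7 was at 0.22 and called without WT male 1 (adjusted p = 0.0455, edgeR), and at 0.07 without WT male 2. Of 9 tested modifier subunits, 5 were above 0 and 4 below, and Kcnf1, at 17.2 CPM per kb, was at -0.16 ± 0.07 (adjusted p = 0.446, edgeR). It was at -0.25 without WT female 1, -0.09 without WT female 2 and -0.08 without the Ttr-rich libraries.

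The calcium- and sodium-activated channels had 3 tested genes above 0 and 4 below. Kcnma1, the large-conductance channel and the highest of them at 15.6 CPM per kb, was at -0.01 (interval -0.11 to 0.10). Kcnn2, a small-conductance channel of the afterhyperpolarisation, was at 52.36, 55.0, 49.3 and 48.52 CPM in female APP/PS1 mice against 64.74 and 59.66 CPM in female WT mice. In males it was at 43.72, 44.26, 44.99 and 62.06 CPM against 54.87 and 54.27 CPM. The groups were separate in females, while in males APP/PS1 male 4 was above both WT libraries. The log2 fold change of -0.18 ± 0.06 did not pass (adjusted p = 0.31, edgeR), and without APP/PS1 male 4 it was -0.27 (adjusted p = 0.0255). Kcnn2 overlaps 4 antisense genes. Kcnt1, a sodium-activated channel, was at -0.01 (interval -0.18 to 0.16).

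The tandem-pore-domain genes, the leak channels, had 7 of 9 tested genes above 0, with a median of 0.05. Kcnk1 had the highest level per length (39.6 CPM per kb) and was at -0.04 (interval -0.15 to 0.06). Kcnk4, a channel opened by membrane stretch, was at 0.28 ± 0.12 (adjusted p = 0.49, edgeR). Of 11 tested auxiliary subunits, 5 were above 0 and 6 below. Kcnab2, a cytoplasmic subunit of Kv1 channels, was at 142 CPM per kb, the highest level of any member, and at -0.06 (interval -0.19 to 0.06).

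**Figure D3:**
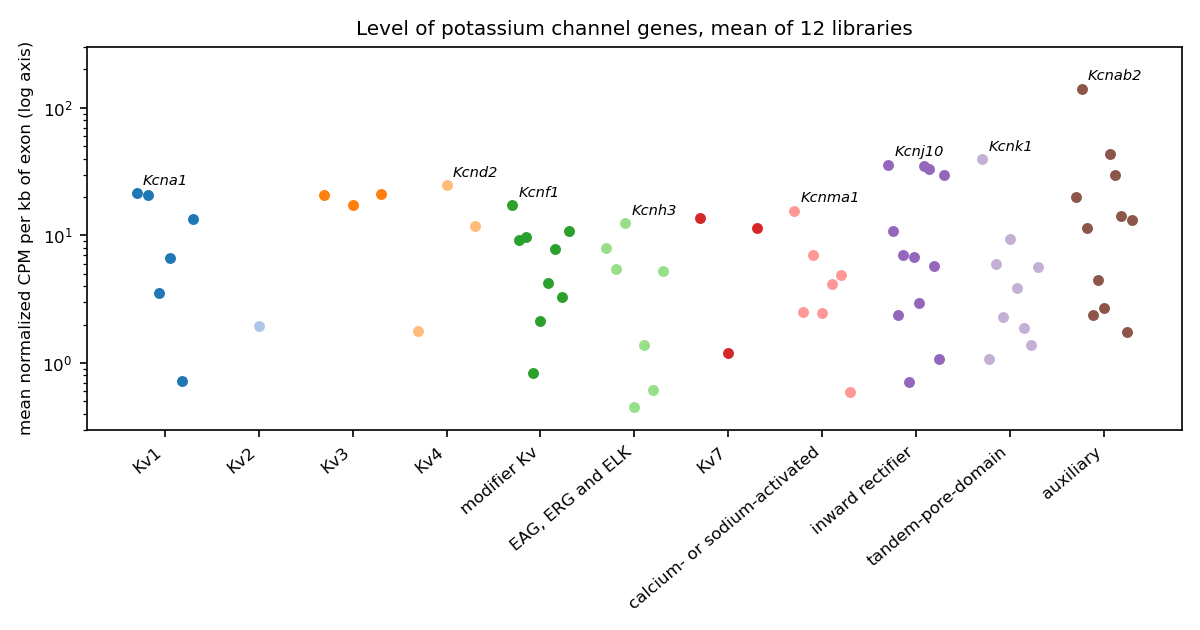
Mean normalized CPM per kb of exon over 12 libraries (y axis, log scale) for 71 potassium channel genes, by subfamily, with a gene named where it is the highest of its subfamily. Kcnab2 stands highest at 142 CPM per kb.

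Genes that work with potassium channels were described from a list of 36 partners and ion transporters, which held Kv4 partners such as Dpp6 and Dpp10, scaffold proteins, sodium pump subunits and chloride transporters. Of 35 tested, 17 were above 0 and 18 below, with a median log2 fold change of -0.01. edgeR's quasi-likelihood test called none, as did the likelihood ratio test and DESeq2, and 0 had an unadjusted p under 0.05.

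Within the sexes no potassium channel gene passed edgeR's quasi-likelihood test, beside 0.75% of all genes called in females and 0.157% in males. At an unadjusted p under 0.05 there were 12 members in females, 16.2% of them beside 9.52% of all genes, and 3 in males, 4.05% beside 5.14%. In females the likelihood ratio test called 2 members and DESeq2 called 3, beside 275 and 286 of all 14008 genes. In males both called 0 members, beside 115 and 119 of all genes. The female median was -0.04 (all genes 0.02) with 44 of 74 members below 0, and 40.5% above 0 beside 54.7% of all genes. The male median was 0.02 (all genes 0.00) with 30 below 0, and 59.5% above 0 beside 51.7% of all genes. The estimates had the same sign in both sexes for 40 members (54.1%, beside 55.1% of all genes). The sexes share no control animals. The smallest p in females belonged to Kcng2, Kcnip2 and Kcnq5, and in males to Kcnj2, Kcnf1 (-0.28 ± 0.10, adjusted p = 0.664) and Kcnj4 (0.21 ± 0.07, adjusted p = 0.747, both edgeR).

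The genotype effect of no member differed between the sexes at an FDR of 0.1 by edgeR's quasi-likelihood test, as for 0% of all genes. At an unadjusted p under 0.05 there were 2 members, Kcnq5 among them, beside 3.57% of all genes, and neither the likelihood ratio test nor DESeq2 called any. Kcnq5, an M-current pore, was at 76.02, 83.2, 76.93 and 85.14 CPM in female APP/PS1 mice against 96.22 and 91.72 CPM in female WT mice. In males it was at 91.78, 83.44, 98.29 and 97.54 CPM against 82.49 and 94.93 CPM. The groups were separate in females, with APP/PS1 lower, and overlapped in males. The log2 fold change was -0.24 ± 0.07 in females and 0.10 ± 0.07 in males, a difference of -0.34 ± 0.10 (unadjusted p = 0.00488, adjusted p = 0.998, edgeR). Kcnj14, a low-level inward rectifier, was at -0.38 ± 0.23 in females (interval -0.87 to 0.11) and 0.29 ± 0.22 in males (interval -0.17 to 0.76). Its difference of -0.67 ± 0.32 did not pass (unadjusted p = 0.0556, adjusted p = 0.998, edgeR's quasi-likelihood test).

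**Figure D4:**
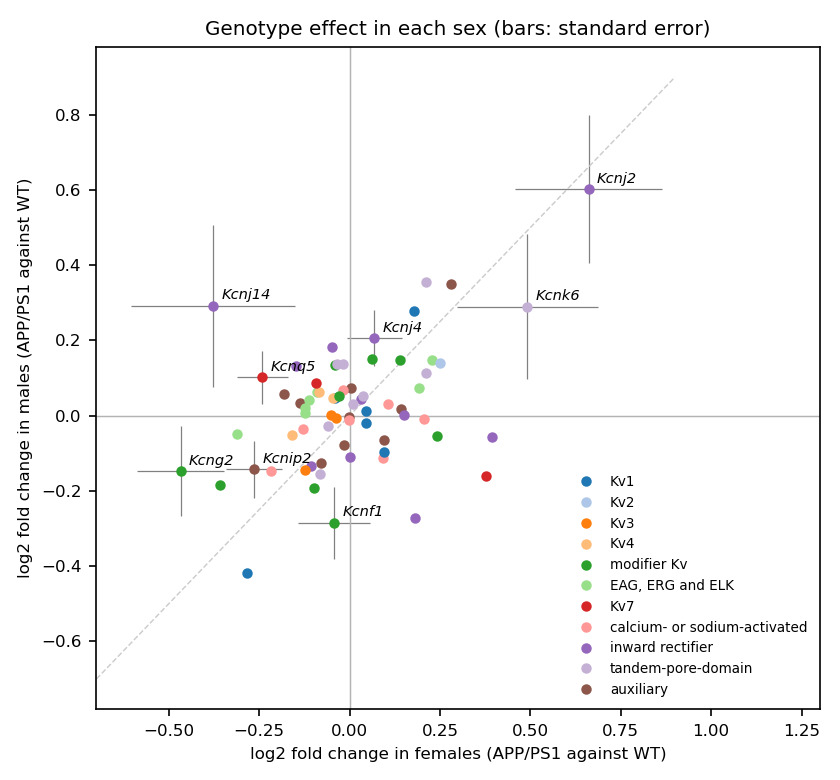
Log2 fold change (APP/PS1 against WT) in females (x axis) and males (y axis) for 69 potassium channel genes, with standard errors for the named ones and a dashed line of equal effect. Kcnj2 lies near the line at 0.66 and 0.60. Kcnj13 and Kcne2, whose male standard errors are 0.58 and 1.35, are not drawn.

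Between females and males, averaged over genotype, no member passed, beside 0.0999% of all genes, and 5 members (6.76%) had an unadjusted p under 0.05, beside 5.88%. Neither the likelihood ratio test of edgeR nor DESeq2 called any. Kcns2, a silent subunit, was 0.20 ± 0.05 higher in females on the log2 scale (adjusted p = 0.533). Kcnab3, a Kv1 auxiliary subunit, was at -0.27 ± 0.08 (adjusted p = 0.604) and Kcnj9, a subunit of G-protein-gated rectifiers, at -0.19 ± 0.06 (adjusted p = 0.659), females against males, all by edgeR's quasi-likelihood test.

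Potassium channel genes high in the Ttr-rich libraries were Kcnj13, Kcne2 and Kcnh2. Each was higher in all 3 of those libraries than in every other, as were 5.53% of all genes, and 1 member was lower in all 3, as were 1.16% of all genes. Kcnj13 and Kcne2 passed the filter only through these libraries, so their difference is a description. Both genes are known from the choroid plexus epithelium, where Kcnj13 forms an apical inward rectifier and Kcne2 modifies voltage-gated channels. Kcnj13 lies on the minus strand at chr1:87386363-87394729, inside 1 antisense gene, and Kcne2 on the plus strand at chr16:92292389-92298129 (GRCm38). Because these members are high together, the 250 bases before their starts are shown, from RefSeq on GRCm38.p6 at chr1:87394730-87394979 (minus strand) and chr16:92292139-92292388 (plus strand), 5′ to 3′, with matches to TATAAA, to CCAAT and to GGGCGG on either strand in capitals. Kcne2 has a second start in this table, which is not shown.
Kcnj13: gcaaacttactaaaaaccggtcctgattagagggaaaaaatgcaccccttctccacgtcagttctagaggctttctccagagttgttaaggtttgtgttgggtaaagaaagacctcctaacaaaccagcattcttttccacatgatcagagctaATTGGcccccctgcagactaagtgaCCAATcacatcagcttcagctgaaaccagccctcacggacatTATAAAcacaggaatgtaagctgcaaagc
Kcne2: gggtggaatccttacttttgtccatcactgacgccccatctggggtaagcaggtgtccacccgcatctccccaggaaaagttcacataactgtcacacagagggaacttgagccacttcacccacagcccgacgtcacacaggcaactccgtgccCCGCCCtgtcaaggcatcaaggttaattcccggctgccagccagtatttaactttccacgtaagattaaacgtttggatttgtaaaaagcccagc
Kcnj13 held TATAAA at 24 to 29 bases before the start, a match found in 12.4% of the 32851 windows, and CCAAT on each strand. Kcne2 held GGGCGG on the reverse strand. TAATCC, the motif of the OTX factors, was in 6.25% of windows and in none of the 3 windows shown.

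Kcnj13 was at 24.9 CPM in APP/PS1 female 1, 32.85 CPM in WT female 2 and 48.88 CPM in APP/PS1 male 2, and between 0.039 and 0.279 CPM in the other 9. Kcne2 was at 22.34, 26.53 and 46.15 CPM in the same libraries and between 0 and 0.167 CPM elsewhere, which is 882 to 1807 counts against 0 to 6. The ratio of means was 265 for Kcnj13 and 659 for Kcne2. Both genes had the order of Ttr across the 3 libraries, which were picked by Ttr, so this is a description. Ttr was close in APP/PS1 female 1 and WT female 2, at 3530 and 3647 CPM. Kcnh2, the ERG channel of the heart and brain, was at 28.57, 33.33 and 29.75 CPM against 21.43 to 28.28 CPM, a ratio of 1.22 that rests on a narrow gap. With no filter on low counts, which changes the scaling, Kcnh2 was no longer above every other library, and 2 members, Kcne2 and Kcnj13, were. Between genotypes, Kcnj13 had a log2 fold change of 0.43 with an interval from -0.24 to 1.10, and Kcne2 one of 0.75 with an interval from -0.77 to 2.26. Over the alternatives these values ran from -0.26 (no filter) to 3.16 (no RUV factors) for Kcnj13 and from -0.32 to 4.21 for Kcne2 under the same settings, so no direction can be read from them. With APP/PS1 male 4 left out Kcne2 was at 0.18, and with WT male 2 left out it was at 1.84.

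**Figure D5:**
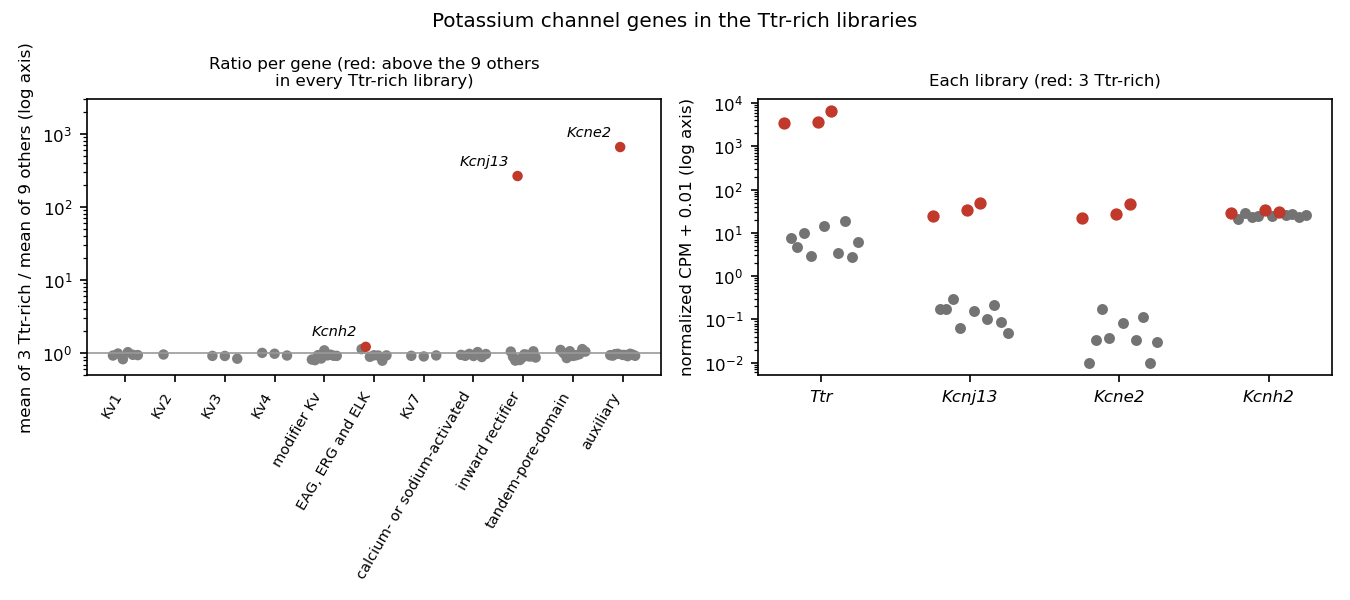
Left, mean of the 3 Ttr-rich libraries divided by the mean of the other 9 (y axis, log scale) for 71 potassium channel genes by subfamily. Right, normalized CPM plus 0.01 (log axis) of Ttr and 3 members in each library, with the 3 Ttr-rich libraries in red. Kcne2 and Kcnj13 stand apart at ratios of 659 and 265, and the other 69 members drawn lie between 0.791 and 1.22.

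Over all 12 libraries the coefficient of variation was 192% for Kcne2 and 187% for Kcnj13. For the others it ran from 3.93% (Kcna2) to 28.7% (Kcna5), with a median of 10.8% over the 74 members and 28.4% for Kcnj2.

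The 20 protein-coding genes below the filter ranged from 0 to 82 counts a library, and Kcnk16 had no count in any, which allows up to 3 counts over the 12 libraries together, for counting error only. Kcnmb1, the smooth muscle subunit of the large-conductance channel, had 61, 46, 42 and 57 counts in female APP/PS1 mice, 46 and 79 in female WT mice, 26, 37, 29 and 26 in male APP/PS1 mice and 59 and 82 in male WT mice. The groups were separate in males and overlapped in females. When the filter was a CPM of 1 in 3 libraries, Kcnmb1 was tested and called lower, at -0.70 ± 0.18 (adjusted p = 0.0895, edgeR). Of the 5 antisense rows, 4 were tested, Kcnq1ot1, Kcnd3os, Kcnmb4os1 and Kcnmb4os2, and none was called (adjusted p = 0.684 to 0.965, edgeR).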

How the data were processed

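Counts per gene were deposited by the authors, after trimming (Trimmomatic), alignment by STAR to the GRCm38 build and quantification by HTSeq. Libraries were directional, and the strand option of counting is not given in the sources used here, so the 37 members whose span overlaps another gene are uncertain. Ensembl IDs were matched to GENCODE M21 (55480 of 55573).

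Groups came from the sample titles. The filter kept genes reaching 1 on the log2 CPM scale, a CPM of 2, in 3 or more libraries, as the study's methods word it. A CPM of 1 in 3 libraries, an alternative here, kept 15521 genes, the number the paper reports after its filter. Counts were scaled by upper quartile and fitted in edgeR 4.0.16 (R 4.3.3) with a term for each of the 4 groups and 2 factors of unwanted variation (RUVg, written anew, controls being the genes ranked below the first 5000 in an initial test of the groups), leaving 6 residual degrees of freedom. The quasi-likelihood test was used with Benjamini-Hochberg adjustment over all 14008 genes at an FDR of 0.1, in place of the study's likelihood ratio test, which was an alternative. The contrasts were tested: the sexes averaged, each sex, their difference, and females against males. Values per library are CPM on the scaled library sizes. The fit was tested on simulated data with changes placed in 200 genes. It found 62 of 100 changes of 0.5 log2 units and 90 of 100 changes of 1, and 11.1% of its calls were false. The simulated data held no unwanted factor such as the Ttr-rich libraries. Within-group pairs of libraries differed by more than counting noise (chi-square per degree of freedom 15.53 to 73). The p-values set a difference against the spread between animals that the model leaves, estimated over all 4 groups together.

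A library was called Ttr-rich above 1000 CPM of Ttr, and these are not groups of the study. Levels per kb use the union of annotated exons. Members named are those called in any contrast, the 6 with the smallest p in each direction averaged, the 3 with the smallest p in the other contrasts, the highest per kb in each subfamily, those high in the Ttr-rich libraries, and known microglial, glial, mural, choroid plexus and neuronal channels. Kcna4, Kcnip3 and Kcnmb1 were named after their values were seen. Values of 3 members are not reported here. Members and lists were chosen with earlier results of these data known. Of the 74 members, 52 had a RefSeq promoter window. In the neuron, hippocampal neuron, interneuron, oligodendrocyte, striatum and thalamus, and choroid plexus lists edgeR's quasi-likelihood test called no gene between genotypes, and 0, 0, 1, 0, 0 and 3 genes had an unadjusted p under 0.05, while the likelihood ratio test and DESeq2 each called 1 choroid plexus gene, Kl. Alternatives were TMM scaling, the likelihood ratio test, no filter, DESeq2 1.42.0, a CPM filter of 1, none or 1 RUV factor, a replicate block, an FDR of 0.05, and leaving out each animal or the Ttr-rich libraries.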

Additional observations from a re-analysis of the deposited data

Results flagged for a closer look

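Of 72 checks for a library that stands apart from its group (groups of 4 APP/PS1 animals), 7 did so, or 9.72%, where chance gives about 5%. 4 of them are Ttr-rich libraries in Kcnj13 and Kcne2, genes that passed the filter only through such libraries, and without these genes 3 of 68 checks (4.41%) stood apart. Those 4 are Kcnj13 at 24.9 CPM in APP/PS1 female 1 (the rest 0.16 to 0.279) and at 48.88 CPM in APP/PS1 male 2 (the rest 0.09 to 0.204), and Kcne2 at 22.34 CPM (the rest 0 to 0.167) and 46.15 CPM (the rest 0.023 to 0.102) in the same 2 libraries. Kcnn2 was at 62.06 CPM in APP/PS1 male 4, while the other male APP/PS1 libraries were at 43.72 to 44.99 CPM. Kcnt1 was at 28.65 CPM in APP/PS1 female 4 (the rest 42.81 to 44.83) and at 55.67 CPM in APP/PS1 male 4 (the rest 29.42 to 32.82).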

How the results depend on the processing

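Kcnj2 kept its direction in all 21 alternatives and was called in 11. The count of members called higher was 2 without the Ttr-rich libraries (Kcnj2, and Kcnip3 at 0.24 in place of 0.02, with 0.48 in place of 0.09 in females), 0 at an FDR of 0.05, and 0 to 2 on leaving out 1 animal. Kcnj2 was lost without any of the 4 female APP/PS1 animals, any of the 4 WT animals, or APP/PS1 male 2. The count called lower was 2 with the likelihood ratio test, 2 with DESeq2 and 2 with the CPM filter, 1 with TMM scaling and 1 without the Ttr-rich libraries, 3 with no filter, and 0 to 2 on leaving out 1 animal, 2 of these without APP/PS1 male 4 (Kcnip2 and Kcnn2) and without WT male 1 (Kcnip2 and Kcng2). In females the count was 2 with the likelihood ratio test, 3 with DESeq2, 1 without the Ttr-rich libraries, and 0 to 1 on leaving out 1 APP/PS1 animal. With no filter the female count was 3: Kcng2, and the choroid plexus genes Kcnj13 and Kcne2, which are high only in the Ttr-rich libraries. With no filter the count was 1 in males (Kcnmb1) and 1 for the difference between the sexes (Kcne2). Between the sexes it was 0 to 1 on leaving out 1 animal, with Kcnip3 called without WT female 1. Without APP/PS1 male 4, Kcna4 was called higher beside Kcnj2 (0.34, adjusted p = 0.0942, edgeR), and Kcnh7 was called without WT male 1. The count of members above all other libraries in the Ttr-rich libraries was 2 with no filter, in place of 3. The causes were not tested.

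Of 14 pairs of libraries with the same replicate number, 4 had a correlation of deviations over 0.1, with a range of -0.633 to 0.685. Deviations were taken from the group mean, so the 2 WT animals of a sex mirror each other. The highest value joined WT female 2 and APP/PS1 male 2, both Ttr-rich. Libraries with different numbers were not compared, so pairing by replicate number was not settled. With the number as a replicate block, 1 member was called higher, Kcna4 (0.41, adjusted p = 0.0385, in place of 0.23, adjusted p = 0.581, edgeR's quasi-likelihood test), and Kcnj2 was not (adjusted p = 0.12). Over all genes the block gave 160 called higher and 56 lower, against 237 and 21. Over all genes and alternatives the count called higher ran from 117 (without WT female 2) to 323 (likelihood ratio test), and that called lower from 8 (no RUV factors, an FDR of 0.05 or without WT male 2) to 84 (without WT male 1), with 59 by the likelihood ratio test and 83 by DESeq2. In females it ran from 12 (without WT female 1) to 286 (DESeq2) against 105, and in males from 4 (without WT male 2) to 119 (DESeq2) against 22.

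Of 748 values of the 36 tested named members under these fits, 648 kept direction and call, 10 lost a call, 15 gained one, 75 changed sign without a call, and 0 reversed. The median over the members ranged from -0.02 to 0.01. With 2 WT animals in each sex, effects within a sex rest on few animals, and genes at a few CPM have the widest intervals.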
